A study of Mus musculus with 20 samples.

Results

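Whole hearts of control mouse embryos were compared between 2 stages, embryonic day (E) 9.0 and E11.5. The samples were chosen by their labels alone: of the 20 RNA-seq libraries of the series, 7 are controls made from whole hearts, 4 titled Mesp1Cre WT (E9.0) and 3 titled Tnnt2::Cre WT (E11.5). The series as a whole was made to find what deletion of the floxed histone methyltransferase gene Kmt2d does in 3 Cre lines. None of these 7 hearts is wild type: each control carried its Cre, 1 floxed and 1 normal Kmt2d allele (Kmt2d fl/+) and 1 copy of the mTmG membrane reporter, on a C57BL/6 background. Mesp1Cre is active in early mesoderm, whereas Tnnt2::Cre is active in embryonic heart muscle cells. The floxed allele is thus open to deletion in early mesoderm in the E9.0 hearts and in cardiomyocytes in the E11.5 hearts.

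Stage, Cre line and sequencing group change together between these libraries and cannot be told apart. All E9.0 libraries come from the Mesp1Cre cross and all E11.5 libraries from the Tnnt2::Cre cross, and the libraries of each cross were sequenced as a group of their own in 2 lanes. The labelled age of the first group is E9.0, but the protocol text attached to the same samples gives E11.5 for all samples. The methods of the study also give E9.0 for this cross. Every difference below is therefore a difference between these groups, written as higher or lower at E11.5, and weight is put on large changes of well known developmental genes that did not overlap between the groups. The embryos behind the libraries are separate by their names, with a shared code in the E11.5 names, and nothing further says that they came from separate litters, so p-values measure the spread between these samples.

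At the earlier of these stages the heart is a looping tube that beats while cells are still being added from the second heart field, a pool of progenitors beside it. By the later stage it has expanding chambers with trabeculae, an epicardium spreading over its surface, and endocardial cushions filled with mesenchyme that will form valves and septa. Over the same period the circulation fills with primitive red cells from the yolk sac, and the early embryo's RNA-binding proteins of the Lin28 and let-7 circuit decline in many tissues.

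Counts per library were 25581534 to 28790705 at E9.0 and 36809972 to 45341870 at E11.5. Levels are given as CPM, which are counts scaled by TMM to a common library size, and in the order of the replicate numbers. Correlation of log2 CPM was 0.958 to 0.961 within E9.0, 0.984 to 0.986 within E11.5 and 0.908 to 0.933 between them. The E9.0 hearts are less uniform, and some of their libraries stand apart for named groups. Of genes of the inflow pole, Vsnl1 was at 110.2, 64.2, 107 and 4.73 CPM in the E9.0 libraries, Nr2f2 at 33.8, 31.7, 30.0 and 5.31 CPM and Shox2 at 6.205, 0.897, 8.14 and 0 CPM, so replicate 4 was lowest for each. These 3 genes are named after their values were seen. Markers of foregut and other epithelium summed to 7.44 to 45.0 CPM at E9.0, and the highest was replicate 3. Counts of some lists that rest on these libraries are given with and without them, and values of single genes mostly are not. Counts by Y-linked genes gave 2 male and 2 female E9.0 libraries and 2 male and 1 female E11.5 library. Kmt2d, listed under its older symbol Mll2, was at 148 ± 4.98 CPM (SD, n = 4) at E9.0 and 139 ± 20.2 CPM (SD, n = 3) at E11.5, and did not pass the test (log2 fold change -0.09, SE 0.10, FDR 0.508).

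Of 16697 genes tested with edgeR's quasi-likelihood test, 6401 (38.3%) passed a Benjamini-Hochberg FDR of 0.05, with 3268 (19.6%) higher and 3133 (18.8%) lower at E11.5. A second rule also asked for at least a 2-fold change and no overlap of CPM between the groups. It was met by 2282 genes (13.7%), of which 1572 (9.41%) were higher and 710 (4.25%) lower. CPM values of the groups did not overlap for 45.5% of all genes. Over all tested genes the log2 fold change had a median of -0.005. Counts of list members below are to be read against these shares. The lists hold 877 entries compiled by hand, of which 873 were found in the table, 16 of them under another symbol, and Ahsp, Peg10, Mirg and Rian were not found. Putting members at 0 in a group at their bound left the median of every list the same. Of the 232 genes named here, 50 overlap another annotated gene on either strand, and since use of strand in counting is not stated, their counts may hold reads of that neighbour.

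**Figure D1:**
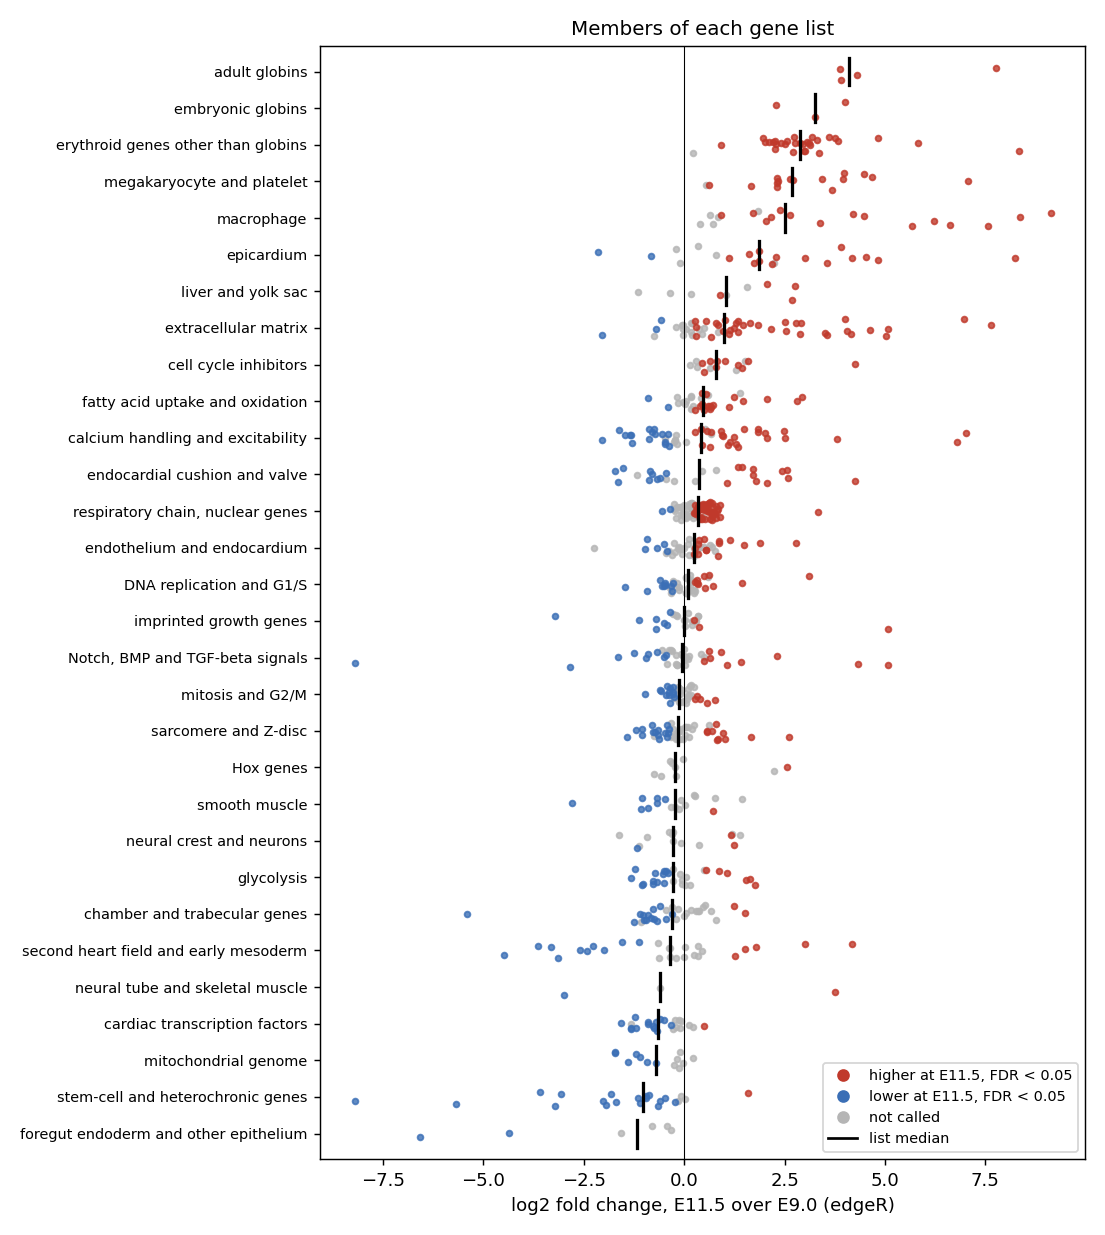
Log2 fold change (x axis, E11.5 over E9.0, from edgeR) of every tested member of 30 gene lists (rows, ordered by their median, which is the black bar). Red and blue points passed an FDR of 0.05 as higher or lower at E11.5 and grey points did not. The adult globins (median 4.11) and the other blood lists lie farthest to the right, and the foregut (median -1.19, 6 genes) and stem-cell and heterochronic lists (median -1.03) farthest to the left.

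Genes of the Lin28 circuit and other early embryonic regulators were lower at E11.5. Of the 28 genes of the stem-cell and heterochronic list, 22 passed the filter on low counts, 18 of these were lower and 1 was higher, with a median log2 fold change of -1.03. By the second rule 11 were lower and 1 higher. Many members are known to be repressed by let-7 or lost early, so the choice of list in part sets these counts. Lin28a and Lin28b encode RNA-binding proteins that block maturation of the let-7 microRNAs, and let-7 in turn represses their messages. The mature let-7a-5p and a let-7 seed site in the 3′ UTR of 5 list members are shown because these genes are textbook let-7 targets. The let-7a line is 5′ to 3′ from RefSeq, with its seed (bases 2 to 8) in capitals. The site lines are 22 bases of mm9 on the gene's strand, with CTACCTC, the complement of the seed, in capitals.
let-7a-5p: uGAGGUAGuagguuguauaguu
Lin28a, chr4:133561104-133561125, minus strand: cacagcctgttgaaCTACCTCa
Lin28b, chr10:45100828-45100849, minus strand: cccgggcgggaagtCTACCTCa
Hmga2, chr10:119801280-119801301, minus strand: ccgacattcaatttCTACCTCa
Trim71, chr9:114421590-114421611, minus strand: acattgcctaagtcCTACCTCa
Igf2bp1, chr11:95823092-95823113, minus strand: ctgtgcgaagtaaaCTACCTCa

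Lin28a (chr4:133559245-133574756, listed as Lin28) was at 21.4, 30.6, 24.5 and 21.3 CPM at E9.0 and 0.525, 0.352 and 0.541 CPM at E11.5. The groups were far apart, with a mean 51.2-fold lower at E11.5 (log2 fold change -5.68, SE 0.23, FDR 8.86e-08). Its paralogue Lin28b fell less in the same comparison, from 68.7 ± 8.21 to 21.0 ± 2.49 CPM (log2 fold change -1.71, SE 0.12, FDR 3.86e-06). Trim71, a let-7 target that acts in stem cells as an RNA-binding ubiquitin ligase, was at 64.3, 55.4, 54.1 and 46.8 CPM at E9.0 and 7.52, 5.44 and 6.61 CPM at E11.5 (log2 fold change -3.08, SE 0.15, FDR 2.96e-07). Hmga2, a chromatin architectural protein of growing embryonic tissue, was at 223, 214, 217 and 228 CPM at E9.0 and 58.2, 54.3 and 59.4 CPM at E11.5 (log2 fold change -1.94, SE 0.08, FDR 8.86e-08). Within each group Hmga2 varied little, and the lowest E9.0 library lay above every E11.5 library. The 3 Igf2bp genes, which encode RNA-binding proteins that stabilise growth messages, were lower by smaller amounts. The log2 fold change was -1.14 for Igf2bp3, -0.94 for Igf2bp1 and -0.65 for Igf2bp2.

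The deepest fall of the list was in Tdgf1, the Nodal co-receptor Cripto, which was at 20.4, 25.4, 20.02 and 28.7 CPM at E9.0 and 0.109, 0.0271 and 0.0854 CPM at E11.5 (log2 fold change -8.21, SE 0.31, FDR 8.86e-08). Its E11.5 values rest on few counts, so the fold is imprecise beyond its being large. Prtg, a receptor of the DCC family found in the early embryo, was at 154, 196, 181 and 189 CPM at E9.0 and 18.9, 11.7 and 14.01 CPM at E11.5 (log2 fold change -3.60, SE 0.16, FDR 1.56e-07). The related gene Igdcc3 was lower in every E11.5 library (log2 fold change -2.02, FDR 0.000241). Sall4, a zinc finger factor of embryonic stem cells, was at 56.5, 85.8, 56.6 and 61.5 CPM at E9.0 and 8.09, 5.33 and 7.55 CPM at E11.5 (log2 fold change -3.22, SE 0.20, FDR 1.16e-06). Dnmt3b, which sets down new DNA methylation, was at 22.7 ± 4.25 CPM at E9.0 and 12.3 ± 1.06 CPM at E11.5 (log2 fold change -0.88, FDR 0.00132). The single member that was higher was Fzd5, a Wnt receptor, at 0.906, 1.75, 2.02 and 2.75 CPM at E9.0 and 5.09, 6.90 and 4.70 CPM at E11.5 (log2 fold change 1.58, FDR 0.00348).

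**Figure D2:**
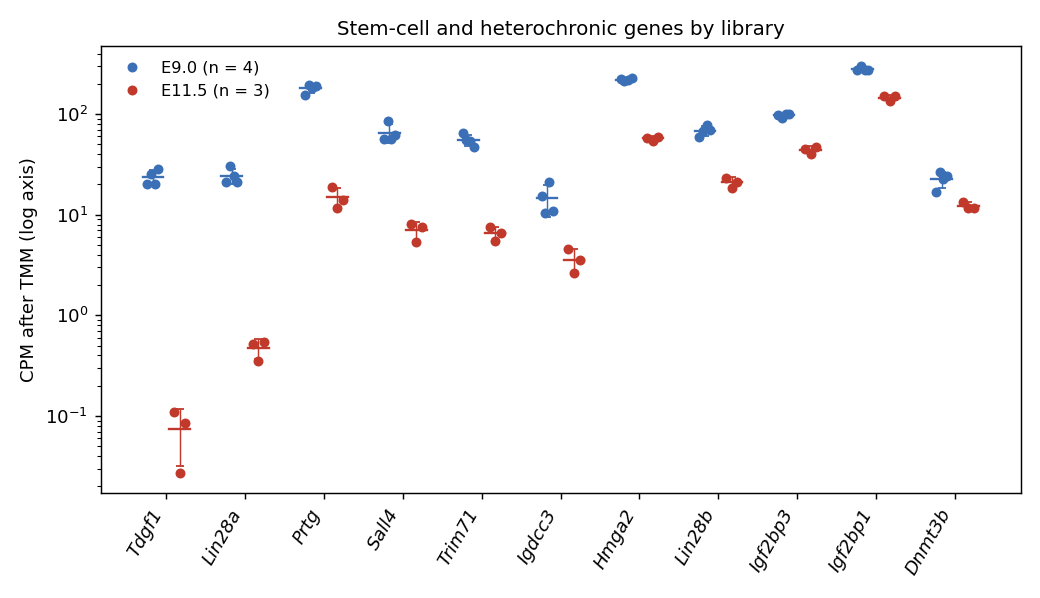
CPM after TMM (y axis, log scale) of 11 stem-cell and heterochronic genes in each E9.0 (blue, n = 4) and E11.5 (red, n = 3) library, with the mean as a horizontal line and the SD as whiskers. For each gene the red points lie below the blue ones, from Tdgf1 with a log2 fold change of -8.21 to Dnmt3b with -0.88.

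The letters CTACCTC occurred 2 times in the 3′ UTR of Lin28a, 4 times each in Lin28b, Hmga2 and Igf2bp1, 2 times each in Trim71, Prtg and Igdcc3, and 0 times in Tdgf1 and Dnmt3b. Of all tested genes with a 3′ UTR, 1468 of 13912 (10.6%) held at least 1 site, or 0.0773 per kb. Among genes past the second rule the share was 66 of 459 (14.4%, 0.112 per kb) for those lower at E11.5 and 154 of 1433 (10.7%, 0.0851 per kb) for those higher. A 3′ UTR was found for these 459 of 710 lower genes and 1433 of 1572 higher genes. The 459 hold the 11 lower members of the heterochronic list. The heterochronic list held a site in 13 of 22 genes (59.1%), but it was compiled with known let-7 targets in mind, so this share is no separate finding. A match is a description of letters only, and let-7 was not measured in these libraries.

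Of the lists, those of blood cells had the highest medians. The 7 globin genes took 0.504% to 1.69% of all counts in the E9.0 libraries and 9.05% to 14.6% in the E11.5 libraries. All 3 embryonic and all 4 adult globins passed the test and the second rule as higher. Of 31 other erythroid genes, all tested, 30 were higher and 29 passed the second rule (median log2 fold change 2.90), and Tfrc, the transferrin receptor, was the only one not called (log2 fold change 0.22, FDR 0.179). Summed, these 31 genes were at 891 to 1957 CPM at E9.0 and 5841 to 10595 CPM at E11.5. In bulk tissue a change in the number of red cells and in RNA per red cell cannot be told apart, and hearts were whole, so chamber blood is part of each library.

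Embryonic globins predominate in the first red cells of the yolk sac and adult globins in those of later origin. Which red cells made each globin RNA was not tested. Promoters of 5 globins, embryonic and adult, are shown. The 2 kinds overlap in log2 fold change, with 4.01 for the embryonic Hbb-y and 3.89 for the adult Hba-a1. Any part of these sequences in the changes was not tested. Each line is the 120 bases before the RefSeq start, 5′ to 3′ on the gene's strand, found without mismatch in mm9. CACCC, the core of the box bound by Klf1, and CCAAT are in capitals. The table's symbols Hbb-b1 and Hbb-b2 stand for the genes RefSeq calls Hbb-bt and Hbb-bs.
Hbb-y, chr7:111001722-111001841, minus strand: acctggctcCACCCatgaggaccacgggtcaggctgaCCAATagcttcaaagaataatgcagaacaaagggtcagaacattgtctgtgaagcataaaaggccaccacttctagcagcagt
Hbb-b1, chr7:110962438-110962557, minus strand: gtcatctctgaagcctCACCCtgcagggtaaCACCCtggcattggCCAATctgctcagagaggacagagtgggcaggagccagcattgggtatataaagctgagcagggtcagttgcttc
Hbb-b2, chr7:110976443-110976562, minus strand: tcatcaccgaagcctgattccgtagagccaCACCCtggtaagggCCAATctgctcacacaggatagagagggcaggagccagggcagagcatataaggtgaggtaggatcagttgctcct
Hba-x, chr11:32176480-32176599, plus strand: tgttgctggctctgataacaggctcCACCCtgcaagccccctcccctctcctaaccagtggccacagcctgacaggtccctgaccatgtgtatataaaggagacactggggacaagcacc
Hba-a1, chr11:32183552-32183671, plus strand: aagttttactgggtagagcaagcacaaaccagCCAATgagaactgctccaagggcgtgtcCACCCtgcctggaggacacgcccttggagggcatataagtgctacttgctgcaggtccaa

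On the strand of the gene, CACCC was present in all 5 of these windows and CCAAT in all but that of Hba-x. Over 27025 RefSeq promoters of the same length, CACCC was found in 16.4% and CCAAT in 11.8% on the gene's strand, and in 31.3% and 22.1% on either strand. The Hba-a1 window is identical in Hba-a2. Reads of the near-identical pairs Hba-a1 and Hba-a2, and Hbb-b1 and Hbb-b2, may have been split between copies, so each member's own value is uncertain.

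Hbb-y, the embryonic beta-type globin, was at 3473, 1694, 3916 and 4771 CPM at E9.0 and 50680.2, 71825 and 45009 CPM at E11.5 (log2 fold change 4.01, SE 0.30, FDR 4.43e-06). Hba-x, the embryonic zeta globin, was at 4551, 2166, 5474 and 7746 CPM at E9.0 and 47048, 58623 and 36694 CPM at E11.5 (log2 fold change 3.25, SE 0.34, FDR 3.00e-05). Hbb-bh1, the other embryonic beta-type gene, was at 2365, 1097, 2696 and 4041 CPM at E9.0 and 14619, 12803 and 10135 CPM at E11.5 (log2 fold change 2.30, SE 0.32, FDR 0.000228). Among these 3 embryonic genes replicate 2 was the lowest E9.0 library each time, and no E9.0 library reached an E11.5 one. The adult gene listed as Hbb-b1 (ENSMUSG00000073940) was at 8.75, 3.00, 7.24 and 5.85 CPM at E9.0 and 1289.9, 1755 and 1007 CPM at E11.5 (log2 fold change 7.76, SE 0.33, FDR 1.04e-07). That listed as Hbb-b2 (ENSMUSG00000052305) had a log2 fold change of 4.32, against 3.89 for Hba-a1 and 3.91 for Hba-a2. Measured per length as FPKM, adult genes made up 0.218% to 0.351% of beta-type globin RNA at E9.0 and 1.95% to 2.30% at E11.5. For the alpha-type genes the adult share was 3.01% to 3.94% at E9.0 and 4.30% to 5.75% at E11.5, so embryonic globins made up most of the globin RNA at both stages.

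**Figure D3:**
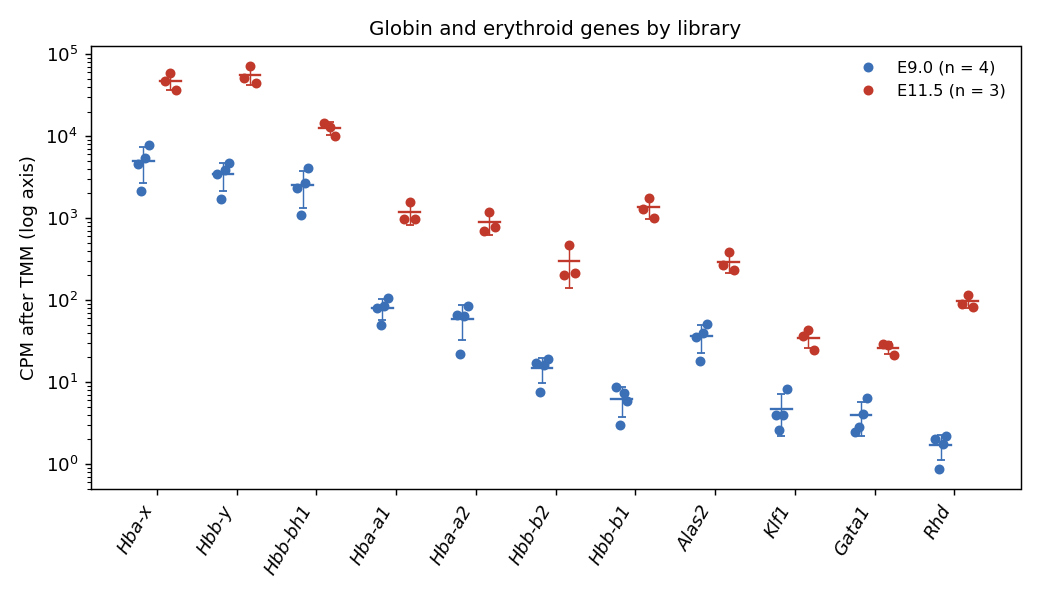
CPM after TMM (y axis, log scale) of the 7 globins and 4 erythroid genes in each E9.0 (blue, n = 4) and E11.5 (red, n = 3) library, with the mean as a horizontal line and the SD as whiskers. The groups do not overlap for any of these genes, and the widest gap is that of Hbb-b1 with a log2 fold change of 7.76.

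Regulators and enzymes of red cells moved with the globins. Alas2, which starts heme synthesis in red cells, was at 35.8, 18.0, 39.7 and 51.5 CPM at E9.0 and 271, 381 and 231 CPM at E11.5 (log2 fold change 3.02, SE 0.28, FDR 1.45e-05). The erythroid transcription factors Klf1 and Gata1 had log2 fold changes of 2.90 (FDR 4.81e-05) and 2.75 (FDR 2.40e-05). Rhd, a red cell membrane protein of the Rhesus family, was at 2.02, 0.858, 1.72 and 2.17 CPM at E9.0 and 90.3, 116 and 82.9 CPM at E11.5 (log2 fold change 5.82, SE 0.23, FDR 8.86e-08). Icam4, a further red cell surface protein, was at 0.906, 0.273, 1.20 and 0.969 CPM at E9.0 and 25.4, 28.3 and 18.3 CPM at E11.5 (log2 fold change 4.83, FDR 1.91e-06). Tspo2, a membrane protein of late erythroid cells, had 0 counts in all E9.0 libraries and 0.700, 2.38 and 0.683 CPM at E11.5, at least 44.2-fold higher against a floor of 3 counts over the group.

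Platelet and macrophage genes were also higher. Of 16 megakaryocyte and platelet genes, 15 were higher (median log2 fold change 2.68), and the list summed to 74.9 to 103 CPM at E9.0 and 320.0 to 555 CPM at E11.5. Pf4 and Ppbp, chemokines of platelet granules, were at 7.22, 2.46, 6.97 and 9.30 CPM at E9.0 and 106, 57.9 and 144 CPM at E11.5 and at 0.418, 0.195, 1.39 and 0.232 CPM at E9.0 and 59.5, 61.4 and 106 CPM at E11.5 respectively (log2 fold change 3.98, FDR 1.62e-05 for Pf4, log2 fold change 7.07, FDR 1.23e-06 for Ppbp). Itga2b, the platelet integrin, had a log2 fold change of 2.72, Gp9 of 4.69 and Treml1 of 4.48. Of 20 macrophage genes tested of 25, 15 were higher and 0 lower, with a median of 2.52. The list summed to 20.2 to 31.9 CPM at E9.0 and 83.3 to 95.8 CPM at E11.5. Members absent or nearly so at E9.0 passed the filter through the E11.5 libraries, so they could only be called higher. With at least 10 counts in every library, 4 macrophage and 7 megakaryocyte and platelet genes were higher. The complement genes C1qa and C1qc and the macrophage receptor Emr1 had 0 counts in all 4 E9.0 libraries. At E11.5 C1qc was at 1.46, 3.03 and 2.05 CPM, at least 76.8-fold higher, Emr1 at 1.01, 1.81 and 0.997 CPM, at least 44.8-fold, and C1qa at 0.437, 0.785 and 0.997 CPM, at least 26.0-fold. Ctss, a lysosomal protease, had 3 counts in 1 E9.0 library and was at 2.10, 3.41 and 4.04 CPM at E11.5. Csf1r, the receptor that macrophages need to develop, was at 0.871, 1.13, 0.337 and 1.59 CPM at E9.0 and 4.68, 5.52 and 5.32 CPM at E11.5 (log2 fold change 2.40, SE 0.40, FDR 0.000758). Lyz2 (log2 fold change 2.03, FDR 0.000310) and the leukocyte phosphatase Ptprc (log2 fold change 2.18, FDR 0.00625) were also higher. Mrc1 passed narrowly (log2 fold change 0.91, FDR 0.0403) and was lost under 9 alternatives, and Cx3cr1 did not pass (log2 fold change 1.85, FDR 0.108).

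The epicardium, the cell layer that comes to cover the heart, had the highest median of the lists outside blood. Of 21 members tested of 23, 14 were higher and 2 lower, the 14 all by the second rule, with a median log2 fold change of 1.86. The list summed to 92.2 to 174 CPM at E9.0 and 319 to 374 CPM at E11.5. Upk3b, a membrane protein of mesothelial cells, was at 7.22, 0.585, 14.6 and 2.98 CPM at E9.0 and 66.0, 69.7 and 90.0 CPM at E11.5 (log2 fold change 3.56, SE 0.61, FDR 0.000869). Replicate 2 held almost none of it and replicate 3 the most of the E9.0 hearts. Tcf21, a transcription factor of epicardium and its fibroblast descendants, was at 4.78, 0.975, 7.76 and 2.83 CPM at E9.0 and 31.3, 32.6 and 34.6 CPM at E11.5 (log2 fold change 3.00, SE 0.43, FDR 0.000278). Tbx18 was at 15.7, 7.02, 21.9 and 6.51 CPM at E9.0 and 41.3, 39.0 and 37.1 CPM at E11.5 (log2 fold change 1.61, SE 0.34, FDR 0.00308), and Wt1, the Wilms tumour factor of epicardium, at 10.2, 8.77, 13.7 and 9.88 CPM at E9.0 and 22.4, 23.3 and 23.3 CPM at E11.5 (log2 fold change 1.11, SE 0.15, FDR 0.000206). These 3 factors did not overlap between stages. Aldh1a2, which makes retinoic acid, was at 3.07, 1.21, 1.65 and 0 CPM at E9.0 and 21.99, 34.0 and 25.2 CPM at E11.5 (log2 fold change 4.17, FDR 0.000227), and Aldh1a1 was higher as well (log2 fold change 2.29, FDR 0.00519). Muc16 had 0 counts at E9.0 and 0.984, 1.89 and 0.655 CPM at E11.5, at least 41.5-fold higher. Msln had 3 counts at E9.0, all in replicate 3, and 0.700, 1.19 and 0.826 CPM at E11.5. Rspo1 was at 0.0349, 0, 0.262 and 0.387 CPM at E9.0 and 4.09, 4.11 and 3.76 CPM at E11.5 (log2 fold change 4.52, FDR 0.000319), and Upk1b had a log2 fold change of 1.86. Against this direction Krt8, a keratin of simple epithelia, was at 13.5, 16.4, 19.5 and 12.4 CPM at E9.0 and 4.11, 2.11 and 4.30 CPM at E11.5 (log2 fold change -2.14, SE 0.26, FDR 8.79e-05). Without E9.0 replicate 3 the list gave 15 higher members and without replicate 4 it gave 14. With at least 10 counts in every library, which drops members absent from a library, it gave 9.

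Extracellular matrix followed the same direction. Of 52 matrix genes tested of 53, 34 were higher and 3 lower (median log2 fold change 0.99), 26 and 1 by the second rule. The higher ones were 29 to 34 with 1 library left out and 25 to 35 under the alternatives that keep all libraries. Members nearly absent at E9.0, such as Eln and Mgp, passed the filter through the E11.5 libraries, so they could only be called higher. Eln, which encodes elastin, was at 0.314, 0.156, 0.112 and 0.232 CPM at E9.0 and 15.1, 33.5 and 30.0 CPM at E11.5 (log2 fold change 6.96, SE 0.36, FDR 3.72e-07). Mgp, an inhibitor of calcification, was at 0, 0.0390, 0.150 and 0.116 CPM at E9.0 and 11.2, 19.6 and 16.2 CPM at E11.5 (log2 fold change 7.63, SE 0.44, FDR 8.02e-07), on 8 counts in all at E9.0. Dcn, the proteoglycan decorin, was at 1.71, 0.156, 1.91 and 0.0387 CPM at E9.0 and 29.6, 33.7 and 35.1 CPM at E11.5 (log2 fold change 5.07, SE 0.59, FDR 6.21e-05). The collagen gene Col1a1 was at 16.1, 8.54, 26.3 and 10.7 CPM at E9.0 and 130.3, 245 and 174 CPM at E11.5 (log2 fold change 3.57, FDR 1.45e-05), Col1a2 had a log2 fold change of 2.88 and Col3a1 of 2.16. The elastic fibre genes Fbln5 (log2 fold change 4.64, FDR 3.44e-05) and Lox (log2 fold change 5.04, FDR 0.00202) and the proteoglycan gene Lum (log2 fold change 4.05, FDR 0.000170) were higher, while Ogn did not pass (log2 fold change 0.50, FDR 0.0681). Col9a1 was higher (log2 fold change 2.54, FDR 0.00204). Col2a1, a fibrillar collagen of cartilage that is also made in early heart tissue, went the other way, at 222, 303, 184 and 240.2 CPM at E9.0 and 64.6, 46.5 and 62.3 CPM at E11.5 (log2 fold change -2.04, SE 0.17, FDR 7.48e-06).

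Cushion and valve genes split into members that were higher and members that were lower. Of 26, all tested, 11 were higher, each also by the second rule, and 9 lower, 3 by the second rule. Postn, periostin of cushion mesenchyme, was at 11.9, 6.63, 13.5 and 5.66 CPM at E9.0 and 157, 184 and 197 CPM at E11.5 (log2 fold change 4.25, SE 0.25, FDR 1.00e-06). The mesenchymal genes Cdh11 (log2 fold change 2.45, FDR 9.04e-06), Papss2 (log2 fold change 2.57, FDR 2.64e-06) and Cthrc1 (log2 fold change 2.58, FDR 0.000381) were higher with it. So were the transcription factors Sox9 (log2 fold change 1.43, FDR 0.000689), Twist1 (log2 fold change 1.07, FDR 0.00104) and Snai2 (log2 fold change 1.35, FDR 0.00673). Has2, which makes the hyaluronan of cardiac jelly, was instead at 92.4, 96.4, 100.0 and 89.0 CPM at E9.0 and 29.7, 22.8 and 32.9 CPM at E11.5 (log2 fold change -1.73, SE 0.12, FDR 2.73e-06). Its partners Vcan (log2 fold change -0.80, FDR 0.000323) and Hapln1 (log2 fold change -0.89, FDR 0.000361), which bind hyaluronan, were lower too. Msx2 (log2 fold change -1.65, FDR 2.39e-05), Lef1 (log2 fold change -1.53, FDR 5.35e-06), Tnc (log2 fold change -0.86, FDR 0.00278) and Nfatc1 (log2 fold change -0.61, FDR 0.000509), a factor of valve endocardium, completed the named members that were lower.

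Transcription factors that specify heart muscle were mostly lower at E11.5. Of 24, all tested, 14 were lower and 1 was higher (0 without E11.5 replicate 3), with a median log2 fold change of -0.65. By the second rule 5 were lower. In bulk tissue a smaller share of heart muscle cells and less RNA per such cell cannot be told apart. The same limit holds for the chamber, sarcomere, calcium handling, excitability, energy metabolism and smooth muscle genes below. Myocd, the co-activator of serum response factor in muscle, was at 363, 415, 352 and 393 CPM at E9.0 and 125, 126 and 131 CPM at E11.5 (log2 fold change -1.58, SE 0.08, FDR 4.33e-07). Mef2c was at 128, 121, 116 and 119 CPM at E9.0 and 49.9, 46.7 and 49.2 CPM at E11.5 (log2 fold change -1.31, SE 0.08, FDR 8.02e-07). Both groups are tight here and lie far apart. Hand1, a factor of the left ventricle, was at 79.7, 96.2, 76.1 and 120.3 CPM at E9.0 and 36.2, 33.0 and 42.7 CPM at E11.5 (log2 fold change -1.32, FDR 7.79e-05), and Tbx5, a factor of atria and left ventricle, at 153, 161, 139 and 97.9 CPM at E9.0 and 59.0, 62.2 and 55.8 CPM at E11.5 (log2 fold change -1.22, FDR 7.98e-05). Gata5 (log2 fold change -1.20, FDR 1.45e-05), Gata4 (log2 fold change -0.74, FDR 0.000637) and Tbx20 (log2 fold change -0.70, FDR 0.00212) were lower, whereas Gata6 (log2 fold change 0.11, FDR 0.335), Mef2a (log2 fold change -0.11, FDR 0.258) and Hand2 (log2 fold change -0.27, FDR 0.150) did not pass. Nkx2-5, the homeobox gene used to mark cardiac cells, was at 21.3, 73.3, 14.1 and 14.5 CPM at E9.0 and 11.2, 10.5 and 15.3 CPM at E11.5, with replicate 2 far above the other E9.0 hearts. It missed the threshold (log2 fold change -1.32, SE 0.51, FDR 0.0612) and passed under 5 alternatives. Without E9.0 replicate 2 its log2 fold change was -0.43 (FDR 0.124).

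Progenitor genes of the second heart field moved in both directions. Of 37 genes of the second heart field and early mesoderm, 27 passed the filter, of which 10 were lower, 5 were higher and 12 did not pass the test (median log2 fold change -0.36). The list summed to 189 to 287 CPM at E9.0 and 336 to 418 CPM at E11.5, so its sum was higher at E11.5. Fgf10, a growth factor of the anterior heart field, was at 9.31, 9.98, 9.94 and 16.6 CPM at E9.0 and 0.853, 0.730 and 1.91 CPM at E11.5 (log2 fold change -3.31, SE 0.36, FDR 4.28e-05). Fgf8 was at 0.453, 1.09, 1.05 and 1.47 CPM at E9.0 and 0.0656, 0.0541 and 0 CPM at E11.5, on 5 counts at E11.5 (log2 fold change -4.49, FDR 0.00110). Isl1, the LIM homeobox factor of these progenitors, was at 8.71, 4.33, 18.3 and 9.03 CPM at E9.0 and 3.69, 2.92 and 3.73 CPM at E11.5 (log2 fold change -1.55, SE 0.39, FDR 0.00839). Its highest value was in E9.0 replicate 3, which also held most Nkx2-6 (0.662, 0.585, 2.92 and 0.581 CPM at E9.0, 0.131, 0.0271 and 0.114 CPM at E11.5, log2 fold change -3.64, FDR 0.00543), a gene of the pharyngeal region. Epithelial markers were highest in the same library, and their part in these differences was not tested. Without replicate 3 the list gave 9 lower members in place of 10. Foxh1, a partner of Nodal signalling, was at 3.24, 6.32, 2.40 and 7.32 CPM at E9.0 and 0.743, 0.649 and 0.228 CPM at E11.5 (log2 fold change -3.13, FDR 0.000634). Rgs4 (log2 fold change -2.26, FDR 0.000229) and Wnt2, a ligand of the venous pole (log2 fold change -1.99, FDR 0.000193), were also lower. Among the 5 higher members Sfrp1, a Wnt antagonist, was at 69.6, 37.2, 78.2 and 17.5 CPM at E9.0 and 142, 187 and 195 CPM at E11.5 (log2 fold change 1.78, FDR 0.00280), lowest in E9.0 replicate 4.

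Chamber and atrioventricular canal genes moved mainly downward. Of 31, 14 were lower and 2 higher, and both of the higher ones are genes of chamber muscle. Nppa, the atrial natriuretic peptide gene of the working myocardium, was at 158, 146, 151 and 239 CPM at E9.0 and 321, 399.6 and 510.1 CPM at E11.5 (log2 fold change 1.24, SE 0.18, FDR 0.000328). Cited1 was at 69.2, 71.2, 58.9 and 93.1 CPM at E9.0 and 161, 194 and 269 CPM at E11.5 (log2 fold change 1.51, SE 0.17, FDR 6.47e-05). The related Nppb (log2 fold change 0.28, FDR 0.405) and the trabecular ligand gene Bmp10 (log2 fold change -0.01, FDR 0.974) did not pass. The greatest fall was in Cck, a peptide hormone gene, which was at 34.0, 48.2, 25.2 and 40.3 CPM at E9.0 and 1.27, 0.487 and 0.769 CPM at E11.5 (log2 fold change -5.42, SE 0.32, FDR 1.00e-06). Bmp2 was at 46.4, 46.1, 46.9 and 27.6 CPM at E9.0 and 17.1, 18.2 and 17.3 CPM at E11.5 (log2 fold change -1.26, FDR 0.000219). Tbx3, a transcriptional repressor that acts in the conduction system, was at 54.2, 49.0, 55.2 and 24.7 CPM at E9.0 and 19.4, 21.3 and 22.9 CPM at E11.5 (log2 fold change -1.11, FDR 0.00282). Each was lowest in replicate 4 among the E9.0 hearts but still above every E11.5 heart. Irx4, a factor of ventricles (log2 fold change -0.74, FDR 0.00858), and Mycn (log2 fold change -0.61, FDR 0.00437) were lower by less.

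Sarcomere genes did not move as a group. Of 47, 10 were higher and 15 lower, shares of 21.3% and 31.9%, and only 3 and 4 passed the second rule. Their sum was 49080.0 to 62541 CPM at E9.0 and 37591 to 48378 CPM at E11.5, without overlap. A large part of it was Ttn, at 17167 to 23670 CPM at E9.0 and 8153 to 12455 CPM at E11.5. The lower sum therefore need not hold for the other members. The abundant genes Actc1, Tnnt2 and Myh7 did not pass (log2 fold change -0.21, FDR 0.305 for Actc1, log2 fold change -0.10, FDR 0.594 for Tnnt2, log2 fold change -0.03, FDR 0.917 for Myh7). Myh7, the slow myosin heavy chain, was at 2116, 2935, 1636 and 3325 CPM at E9.0 and 2222, 2396 and 2726 CPM at E11.5, so the E9.0 range took in that of E11.5. Myh6 was at 2471, 2917, 2125 and 1942 CPM at E9.0 and 1424, 1275 and 1394 CPM at E11.5 (log2 fold change -0.79, FDR 0.000742). Among the light chains named here, the ventricular Myl3 and Myl2 were higher and the atrial Myl7 was lower. The list also holds Myl4 and Myl1, which are not given here. Myl3 was at 685, 675, 534 and 697 CPM at E9.0 and 1224, 1100.0 and 1605 CPM at E11.5 (log2 fold change 1.02, SE 0.14, FDR 0.000161) and Myl2 at 903, 861, 686 and 1066 CPM at E9.0 and 1229, 1234 and 1446 CPM at E11.5 (log2 fold change 0.57, SE 0.13, FDR 0.00557), against 2734, 2900.4, 2248 and 2361 CPM at E9.0 and 1510.2, 1307 and 1829 CPM at E11.5 for Myl7 (log2 fold change -0.73, SE 0.13, FDR 0.00123).

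Among further sarcomere genes Myoz2, a Z-disc protein that binds calcineurin, was at 6.27, 5.34, 7.01 and 8.49 CPM at E9.0 and 37.95, 39.1 and 47.1 CPM at E11.5 (log2 fold change 2.61, SE 0.16, FDR 1.16e-06). Tnnt1, the troponin T of slow skeletal muscle, was at 18.1, 13.5, 11.1 and 11 CPM at E9.0 and 41.0, 39.9 and 47.8 CPM at E11.5 (log2 fold change 1.67, SE 0.17, FDR 2.68e-05). The inhibitory troponins Tnni1 (log2 fold change 0.56, FDR 0.00790) and Tnni3 (log2 fold change 0.70, FDR 0.00102) were higher by similar amounts, and Tcap was higher with an FDR of 0.0287. Some members of the list were lower. Ttn, the giant spring of the sarcomere, was at 17167, 22542, 18658 and 23670.2 CPM at E9.0 and 12455, 8153 and 8920.4 CPM at E11.5 (log2 fold change -1.06, SE 0.17, FDR 0.000511), and Nebl, the cardiac nebulin relative, at 1133, 1346, 1004 and 1227 CPM at E9.0 and 461, 403 and 456 CPM at E11.5 (log2 fold change -1.42, SE 0.11, FDR 5.35e-06). The Z-disc gene Pdlim5 (log2 fold change -1.05, FDR 1.34e-05) and Acta1, the skeletal alpha-actin (log2 fold change -1.19, FDR 0.000305), were also lower.

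Calcium handling and excitability had more called members than most lists. Of 49 tested of 51, 24 were higher (15 by the second rule) and 16 lower (5 by the second rule), which is 49.0% and 32.7% of the list. With 1 library left out 17 to 22 were higher and 14 to 18 lower. The list summed to 7662 to 9496 CPM at E9.0 and 6280 to 7197 CPM at E11.5, so its sum was lower at E11.5. Casq2, which stores calcium in the sarcoplasmic reticulum, was at 3.97, 2.89, 2.02 and 4.18 CPM at E9.0 and 37.8, 50.3 and 49.9 CPM at E11.5 (log2 fold change 3.81, SE 0.22, FDR 8.24e-07). Pln, which restrains the calcium pump, was at 81.4, 89.2, 76.9 and 94.5 CPM at E9.0 and 271, 289 and 363 CPM at E11.5 (log2 fold change 1.85, SE 0.11, FDR 1.00e-06). The pump itself, Atp2a2, did not pass (log2 fold change -0.23, FDR 0.129). The release channel Ryr2 was at 886, 1058, 823 and 796 CPM at E9.0 and 589, 506 and 493 CPM at E11.5 (log2 fold change -0.75, FDR 0.000373) and the sodium-calcium exchanger Slc8a1 at 2927, 3231, 2472 and 2901 CPM at E9.0 and 1854, 1600.3 and 1807 CPM at E11.5 (log2 fold change -0.72, FDR 0.000371), so both were lower while the storage protein and the pump's inhibitor were higher. Sln, the atrial pump regulator, had 1 count in all at E9.0 and was at 1.79, 1.299 and 2.08 CPM at E11.5. Atp2a1, the pump of fast muscle, was lower (log2 fold change -1.61, FDR 0.00406).

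Pacemaker and conduction genes moved in both directions. Hcn4, the main pacemaker channel, was at 74.7, 51.1, 57.6 and 38.7 CPM at E9.0 and 24.3, 21.0 and 21.6 CPM at E11.5 (log2 fold change -1.32, SE 0.19, FDR 0.000245). The calcium channel Cacna1d, which opens at low voltage in pacemaker cells, was at 84.1, 93.2, 81.1 and 75.2 CPM at E9.0 and 39.5, 26.4 and 24.2 CPM at E11.5 (log2 fold change -1.47, SE 0.16, FDR 3.79e-05). Cacna1g, a T-type calcium channel, was at 1.19, 1.13, 2.66 and 0.697 CPM at E9.0 and 8.05, 10.2 and 6.15 CPM at E11.5 (log2 fold change 2.52, SE 0.38, FDR 0.000395). Kcne1, a subunit of the slow delayed rectifier, was at 6.83, 8.58, 5.36 and 4.57 CPM at E9.0 and 22.1, 24.7 and 33.3 CPM at E11.5 (log2 fold change 2.07, SE 0.21, FDR 3.01e-05). The gap junction genes Gja5 and Gja1, which couple chamber muscle, were both higher, at 65.3, 67.7, 75.6 and 41.6 against 129, 151 and 193 CPM for Gja5 (log2 fold change 1.33, FDR 0.000191) and 45.1, 48.1, 46.0 and 52.7 against 87.6, 106 and 125 CPM for Gja1 (log2 fold change 1.14, FDR 2.42e-05). Kcnj5 was lower (log2 fold change -0.87, FDR 3.71e-05), and Kcnj8 had 1 count in all at E9.0 and was at 1.57, 1.81 and 0.997 CPM at E11.5. Small changes were measured for Cacna1c (-0.40), Kcnj2 (0.66) and Kcnj3 (0.63) on the log2 scale, all under an FDR of 0.05. Of these, Kcnj2 lost its call under 6 alternatives and Kcnj3 under 9.

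**Figure D4:**
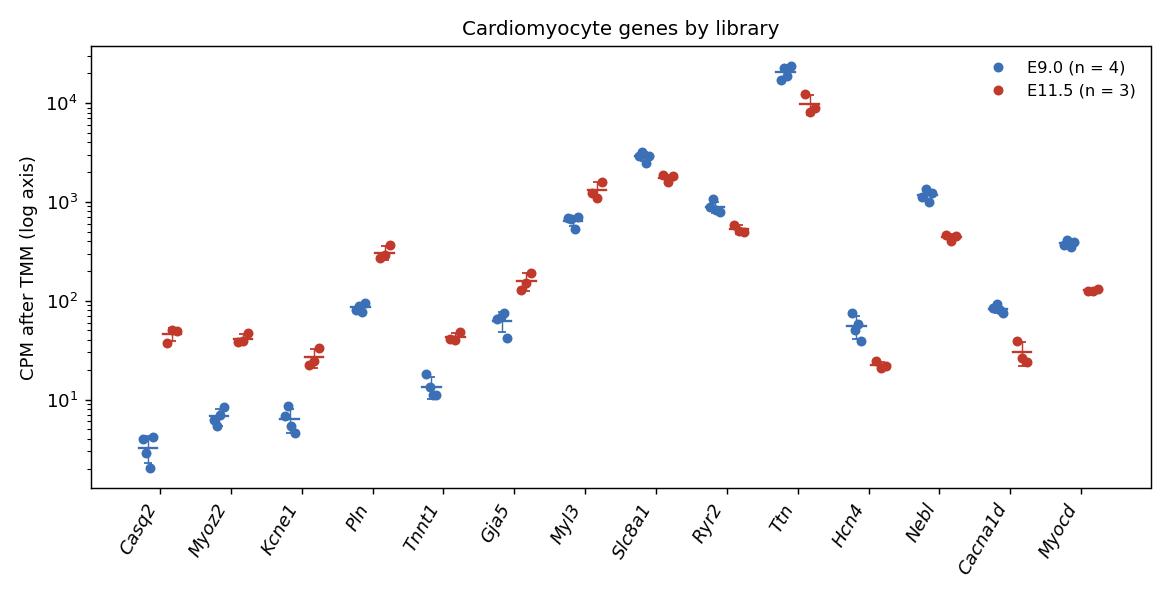
CPM after TMM (y axis, log scale) of 14 cardiomyocyte genes in each E9.0 (blue, n = 4) and E11.5 (red, n = 3) library, with the mean as a horizontal line and the SD as whiskers. The genes at the left, from Casq2 (log2 fold change 3.81) to Myl3 (1.02), are higher at E11.5, and those from Slc8a1 (-0.72) to Myocd (-1.58) are lower.

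Energy metabolism genes differed by pathway. Of 28 glycolysis genes, 13 were lower and 6 higher (4 each by the second rule), while of 32 genes of fatty acid uptake and oxidation tested of 33, 18 were higher and 2 lower. Slc2a1, the glucose carrier of embryonic tissue, was at 1056, 1130.3, 915 and 888 CPM at E9.0 and 411, 352 and 514 CPM at E11.5 (log2 fold change -1.23, SE 0.14, FDR 4.69e-05). Slc2a3 (log2 fold change -1.31, FDR 0.000120), Hk2, which commits glucose to use in the cell (log2 fold change -1.04, FDR 0.000118), the lactate exporter Slc16a3 (log2 fold change -1.04, FDR 0.000239) and Ldha (log2 fold change -0.73, FDR 0.00121) were lower with it. The insulin-responsive carrier Slc2a4 was at 6.34, 5.38, 4.24 and 1.94 CPM at E9.0 and 16.2, 15.6 and 13.8 CPM at E11.5 (log2 fold change 1.76, FDR 0.000762). Ldhb, the lactate dehydrogenase of oxidative heart muscle, was at 66.3, 54.9, 58.4 and 67.7 CPM at E9.0 and 155, 169 and 213 CPM at E11.5 (log2 fold change 1.53, SE 0.12, FDR 4.43e-06). Pdk2 (log2 fold change 1.64, FDR 2.94e-05) and the muscle enzyme Pgam2 (log2 fold change 1.06, FDR 0.000359) were higher, and Pdk1 did not pass (log2 fold change -0.27, FDR 0.119).

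In fatty acid oxidation Acadl, a long-chain acyl-CoA dehydrogenase, was at 29.6, 21.6, 25.3 and 27.8 CPM at E9.0 and 91.3, 110.2 and 128 CPM at E11.5 (log2 fold change 2.07, SE 0.13, FDR 1.51e-06). Acadvl (log2 fold change 1.47, FDR 3.38e-05), the fatty acid carrier Fabp3 (log2 fold change 1.11, FDR 0.000114) and Cd36 (log2 fold change 0.63, FDR 0.0143) were higher. Cpt1a was at 0.279, 1.44, 3.11 and 0.194 CPM at E9.0 and 9.01, 9.23 and 8.37 CPM at E11.5 (log2 fold change 2.82, FDR 0.00471), whereas its muscle paralogue Cpt1b did not pass (log2 fold change 0.17, FDR 0.302). Ucp2, a mitochondrial carrier that blood cells also make, was at 40.5, 32.3, 35.8 and 44.0 CPM at E9.0 and 266, 352 and 253 CPM at E11.5 (log2 fold change 2.93, SE 0.14, FDR 1.59e-07), and the rise in blood genes moves with it. The part of blood in this value was not tested. Lpl did not pass (log2 fold change -0.16, FDR 0.380), and Ppargc1a, a co-activator of mitochondrial genes, was lower (log2 fold change -0.41, FDR 0.00388).

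Of 79 nuclear genes of the respiratory chain, 45 were higher and 2 lower (1 without E11.5 replicate 1 or 2, 4 without replicate 3). The higher ones were 33 to 47 with 1 library left out and 34 with the replicate block. The changes were small: the median log2 fold change was 0.34 and only 1 gene passed the second rule. That gene was Cox8b, a muscle subunit of cytochrome oxidase, at 0.139, 0.0780, 0.300 and 0.465 CPM at E9.0 and 2.21, 2.27 and 3.08 CPM at E11.5 (log2 fold change 3.34, SE 0.53, FDR 0.000504), while its partner Cox8a was lower (log2 fold change -0.56, FDR 0.00230). Sdha, of complex II, showed the small size usual for the list, at 188 ± 23.7 CPM (SD, n = 4) and 246 ± 29.7 CPM (SD, n = 3) (log2 fold change 0.39, FDR 0.0157). Of the 13 protein-coding genes of the mitochondrial genome 7 were lower and 0 higher. Summed, these 13 genes were at 20567 to 21203 CPM at E9.0 and 12968 to 15676 CPM at E11.5, without overlap. All genes of the mitochondrial chromosome together took 22.03% to 23.4% of all counts at E9.0 and 19.5% to 25.1% at E11.5. That wider total overlapped. mt-Nd1 was at 2861, 2843, 2958 and 2862 CPM at E9.0 and 961, 1025 and 1296 CPM at E11.5 (log2 fold change -1.40, SE 0.11, FDR 6.32e-06) and mt-Nd4l at 68.9, 63.9, 68.1 and 59.0 CPM at E9.0 and 19.4, 19.4 and 20.6 CPM at E11.5 (log2 fold change -1.71, SE 0.10, FDR 8.02e-07). mt-Nd2 was lower (log2 fold change -1.73, FDR 0.00356) with E9.0 replicate 4 at 774 CPM, and mt-Co1 did not pass (log2 fold change -0.14, FDR 0.326).

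Cell cycle genes had few large changes. Of 46 genes of DNA replication and G1/S, 10 were higher and 10 lower, and of 38 mitotic genes 5 were higher and 13 lower, with 0 past the second rule. Without E11.5 replicate 2 the lower ones were 6 and 8, and without E11.5 replicate 3 the mitotic ones were also 8. The higher mitotic genes were 3 without E11.5 replicate 1 or 2 or E9.0 replicate 1, 2 or 3. Mcm2 did not pass (log2 fold change 0.07, FDR 0.573), Ccne1 (log2 fold change -0.60, FDR 0.00332) and Ccnb1 (log2 fold change -0.27, FDR 0.0265) were slightly lower, and Mki67, present in all dividing cells, was higher (log2 fold change 0.78, FDR 0.000900). The D cyclins moved in opposite directions. Ccnd2 was at 114, 121, 74.8 and 151 CPM at E9.0 and 41.7, 37.7 and 44.5 CPM at E11.5 (log2 fold change -1.48, SE 0.19, FDR 0.000115), and Ccnd3, which red cell precursors use, was at 96.8, 94.6, 94.2 and 116 CPM at E9.0 and 266, 287 and 271 CPM at E11.5 (log2 fold change 1.45, SE 0.09, FDR 1.16e-06). E2f2, also an erythroid cell cycle factor, was at 5.61, 6.28, 6.00 and 12.4 CPM at E9.0 and 63.9, 76.6 and 54.5 CPM at E11.5 (log2 fold change 3.11, SE 0.25, FDR 6.35e-06). Among inhibitors 10 of 16 tested were higher and 0 lower. Cdkn2c, an inhibitor of Cdk4 and Cdk6, was at 0.802, 0.585, 0.412 and 0.697 CPM at E9.0 and 11.9, 13.3 and 11.02 CPM at E11.5 (log2 fold change 4.26, SE 0.25, FDR 8.24e-07). Rb1, the retinoblastoma gene, was at 19.4, 15.6, 17.9 and 20.1 CPM at E9.0 and 44.3, 55.3 and 49.1 CPM at E11.5 (log2 fold change 1.44, SE 0.12, FDR 8.22e-06), and Btg2 was higher (log2 fold change 1.60, FDR 0.000576). Cdkn1a (log2 fold change 0.64, FDR 0.0950) and Cdkn1c (log2 fold change 0.28, FDR 0.116) did not pass. The blood genes rise in the same libraries, and their part in the values of Ccnd3, E2f2, Rb1 and Cdkn2c was not tested.

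Endothelial genes were higher in part. Of 45, 15 were higher and 5 lower, with a median of 0.25 and 4 past the second rule. Without E11.5 replicate 3 the higher ones were 8. The general marker Cdh5 was at 95.1 ± 8.45 CPM (SD, n = 4) at E9.0 and 103 ± 11.1 CPM (SD, n = 3) at E11.5 and did not pass (log2 fold change 0.12, FDR 0.354), nor did the VEGF receptor gene Kdr (log2 fold change -0.14, FDR 0.204). Pecam1 (log2 fold change 0.55, FDR 0.0134) and Npr3 (log2 fold change 0.27, FDR 0.0286) were slightly higher, and Npr3 lost its call under 8 alternatives. Larger changes were measured for a few members. Vwf, the clotting factor of endothelium that megakaryocytes also make, was at 18.8, 20.2, 24.3 and 25.1 CPM at E9.0 and 49.3, 44.4 and 53.2 CPM at E11.5 (log2 fold change 1.15, SE 0.13, FDR 4.46e-05). Gja4, a gap junction gene of arteries (log2 fold change 1.48, FDR 9.38e-05), and Robo4 (log2 fold change 1.88, FDR 0.00124) were higher, as was Mmrn1 (log2 fold change 2.78, FDR 0.000216), a multimerin that platelets also hold. Megakaryocyte and platelet genes are higher in the same libraries (15 of 16), and their part in the values of Vwf and Mmrn1 was not tested.

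Smooth muscle genes, which early cardiomyocytes also express, were mostly lower where called, 7 of 17 tested against 1 higher. Acta2 was at 2452, 2655, 2177 and 2726 CPM at E9.0 and 1175, 794 and 1570.2 CPM at E11.5 (log2 fold change -1.08, SE 0.19, FDR 0.000924). Tagln (log2 fold change -1.05, FDR 0.00824) was lower, and Lmod1 fell the most, at 22.7, 19.2, 14.5 and 18.7 CPM at E9.0 and 3.26, 0.839 and 4.07 CPM at E11.5 (log2 fold change -2.78, SE 0.39, FDR 0.000246). Myh11, the defining myosin of mature smooth muscle, was at 8.96, 8.66, 7.27 and 9.14 CPM at E9.0 and 5.92, 6.74 and 3.42 CPM at E11.5 (log2 fold change -0.66, FDR 0.0418), and lost its call under 9 alternatives. Cnn1 (log2 fold change -0.24, FDR 0.117) and the pericyte gene Rgs5 (log2 fold change 0.26, FDR 0.542) did not pass.

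Of 38 Notch, BMP and TGF-beta genes tested of 41, 9 were higher and 9 lower. Inhba, which encodes an activin subunit, was at 0.314, 0.0390, 0.487 and 0.349 CPM at E9.0 and 8.85, 10.1 and 11.48 CPM at E11.5 (log2 fold change 5.07, SE 0.41, FDR 6.74e-06). Heyl, a Notch target of smooth muscle and mesenchyme, was at 2.75, 1.01, 1.99 and 0.736 CPM at E9.0 and 6.49, 8.85 and 8.94 CPM at E11.5 (log2 fold change 2.31, FDR 0.000649). Lefty1, an inhibitor of Nodal, had 3 counts at E9.0 and was at 0.918, 0.595 and 0.399 CPM at E11.5. The ligand gene Bmp5 was at 40.2, 54.4, 44.1 and 51.5 CPM at E9.0 and 19.02, 13.99 and 12.1 CPM at E11.5 (log2 fold change -1.66, SE 0.17, FDR 2.69e-05), and Bmp7 did not pass (log2 fold change -0.17, FDR 0.251). Tgfb2, which drives cushion transformation, was at 152, 147, 135 and 151 CPM at E9.0 and 73.3, 78.1 and 83.3 CPM at E11.5 (log2 fold change -0.90, SE 0.08, FDR 1.11e-05), whereas Tgfb3 was at 5.44, 6.32, 6.34 and 5.23 CPM at E9.0 and 10.9, 10.4 and 11.7 CPM at E11.5 (log2 fold change 0.91, SE 0.16, FDR 0.000921). Id2, a BMP target (log2 fold change -0.94, FDR 0.000251), and the Nodal co-receptor gene Cfc1 (log2 fold change -2.85, FDR 0.0104) were lower.

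Of 22 imprinted growth genes 3 were higher and 7 lower, with a median log2 fold change of 0.0025. Igf2, the fetal growth factor, was at 4354, 3672, 3864 and 3073 CPM at E9.0 and 3244, 3706 and 4345 CPM at E11.5 (log2 fold change 0.01, FDR 0.965), and H19 (log2 fold change 0.20, FDR 0.181), Dlk1 (FDR 0.993) and Meg3 (log2 fold change -0.20, FDR 0.208) did not pass. Phlda2, a growth repressor, was at 2.13, 1.44, 2.51 and 2.13 CPM at E9.0 and 0.284, 0.135 and 0.228 CPM at E11.5 (log2 fold change -3.22, SE 0.47, FDR 0.000300). Airn, listed as D17Ertd663e, was at 34.9, 39.9, 37.6 and 35.2 CPM at E9.0 and 20.9, 13.9 and 15.6 CPM at E11.5 (log2 fold change -1.13, FDR 0.000119). Only 9 of 18 Hox genes passed the filter, of which 1, Hoxd3, was higher (log2 fold change 2.56, FDR 0.0271) and 0 lower.

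Markers of neighbouring tissues were sparse. Of 24 neural crest and neuron genes 14 passed the filter, 2 were higher and 1 lower. Ednrb (log2 fold change 1.25, FDR 3.60e-05), which endothelium also makes, and Erbb3 (log2 fold change 1.18, FDR 5.41e-05), which cushion mesenchyme also makes, were the higher ones, and Elavl4 (log2 fold change -1.19, FDR 0.00353) was the lower. Of 15 liver and yolk sac genes 9 passed and 4 were higher, among them Trf (log2 fold change 2.75, FDR 0.000649), Apob (log2 fold change 2.06, FDR 0.00152) and Ttr (log2 fold change 2.69, FDR 0.0209). Without E11.5 replicate 1 or 3 the higher ones were 2. The list summed to 5.86 to 8.35 CPM at E9.0 and 18.2 to 21.2 CPM at E11.5. For foregut and other epithelium 6 of 21 passed and 2 were lower, 1 of them Pyy, with 1 count in all at E11.5 against 0.941, 0.663, 1.54 and 1.55 CPM at E9.0. Without E9.0 replicate 3, which held most of these markers, 1 was lower, as without E11.5 replicate 1 or 3. Of the neural tube and skeletal muscle list 3 of 16 passed. Meox1, a mesodermal factor in that list, was at 0.871, 0.117, 2.25 and 0.465 CPM at E9.0 and 11.3, 13.1 and 13.5 CPM at E11.5 (log2 fold change 3.76, FDR 0.000300), and 1 member was lower, a call that ended without each library in turn except E9.0 replicate 1.

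Among genes past the second rule whose log2 CPM averaged 3 or more, the 10 largest rises held the blood genes Hbb-b1, Ppbp and Rhd and the matrix genes Eln and Dcn, already given. Of the rest, Clca1, of a family of chloride channel regulators, was at 0.314, 0.390, 0.375 and 0.0387 CPM at E9.0 and 37.9, 45.8 and 42.7 CPM at E11.5 (log2 fold change 7.21, SE 0.29, FDR 8.86e-08). Pdzk1ip1 was at 0.174, 0, 1.12 and 0.775 CPM at E9.0 and 36.2, 60.3 and 35.6 CPM at E11.5 (log2 fold change 6.40, FDR 7.13e-06) and Hsd3b6, a steroid dehydrogenase, at 9.93, 5.15, 5.70 and 4.92 CPM at E9.0 and 163, 314 and 146 CPM at E11.5 (log2 fold change 5.01, FDR 1.16e-06). AC141641.1 (log2 fold change 5.50, FDR 0.000345) and AC131980.1 (log2 fold change 4.94, FDR 2.03e-06), which are unnamed gene models, also met the rule. The first was at 1.92, 39.8 and 41.5 CPM at E11.5, so 1 of its E11.5 libraries was near the E9.0 level. The 10 largest falls held Tdgf1, Lin28a, Cck, Prtg, Sall4 and Trim71, for which all E9.0 hearts lay far above all E11.5 hearts. They also held gene models with E9.0 values that were far apart. AL732526.3 was at 0.383, 0.234, 0.412 and 184 CPM, RP23-265I19.1 at 44.1, 39.7, 0.562 and 0.349 CPM and AC122881.1 at 105, 45.6, 1.05 and 52.7 CPM in the E9.0 libraries. For each of these at least 1 E9.0 heart sat close to the E11.5 hearts, which were all under 1 CPM.

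Ratios of 2 genes within a library do not depend on the scaling of libraries. For 19 pairs of isoforms or paralogues the log2 ratio of FPKM was compared by an exact two-sided permutation test over the libraries, whose smallest possible p with 4 against 3 is 0.0571, so 0.05 could not be reached. In 14 pairs the groups did not overlap, 12 with a higher and 2 with a lower ratio at E11.5, each with the smallest exact p (0.0776 after Benjamini-Hochberg adjustment over the 19). The largest difference was that of Hbb-b1 over Hbb-bh1. Its log2 ratio was -8.27, -8.71, -8.74 and -9.63 at E9.0 and -3.70, -3.06 and -3.53 at E11.5, a difference of 5.41, and the ratio of Hbb-b1 over Hbb-y differed by 3.75. Hba-a1 over Hba-x overlapped between groups (difference 0.53, exact p 0.114).

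Among metabolic pairs Cox8b over Cox8a differed by 4.22, and Slc2a4 over Slc2a1 by 3.13. Ldhb over Ldha was -3.48, -3.74, -3.44 and -3.47 at E9.0 and -1.34, -1.09 and -1.34 at E11.5, so Ldha stayed the more abundant at both stages. Cpt1b over Cpt1a was 7.30, 4.68, 3.40 and 7.87 at E9.0 and 2.25, 2.24 and 2.50 at E11.5, falling from a wide E9.0 spread. Among contractile pairs Tnnt1 over Tnnt2 differed by 1.81, Myl2 over Myl7 by 1.31 and Acta1 over Actc1 by -0.97. Myh6 over Myh7 was 0.62, 0.38, 0.77 and -0.38 at E9.0 and -0.25, -0.52 and -0.57 at E11.5 (exact p 0.114), and E9.0 replicate 4 lay among the E11.5 values. Tnni3 over Tnni1 (difference 0.14), Gja5 over Gja1 (0.22) and Cox7a1 over Cox7a2 (-0.20) overlapped too. For the factors, Mef2a over Mef2c was -0.65, -0.48, -0.55 and -0.40 at E9.0 and 0.64, 0.78 and 0.62 at E11.5 and Gata6 over Gata5 was -0.23, -0.42, -0.45 and -0.33 at E9.0 and 0.82, 1.17 and 0.92 at E11.5, so the more abundant member changed in both pairs. Cox6a2 over Cox6a1 (0.62) and Igf2bp2 over Igf2bp1 (0.29) differed by less.

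**Figure D5:**
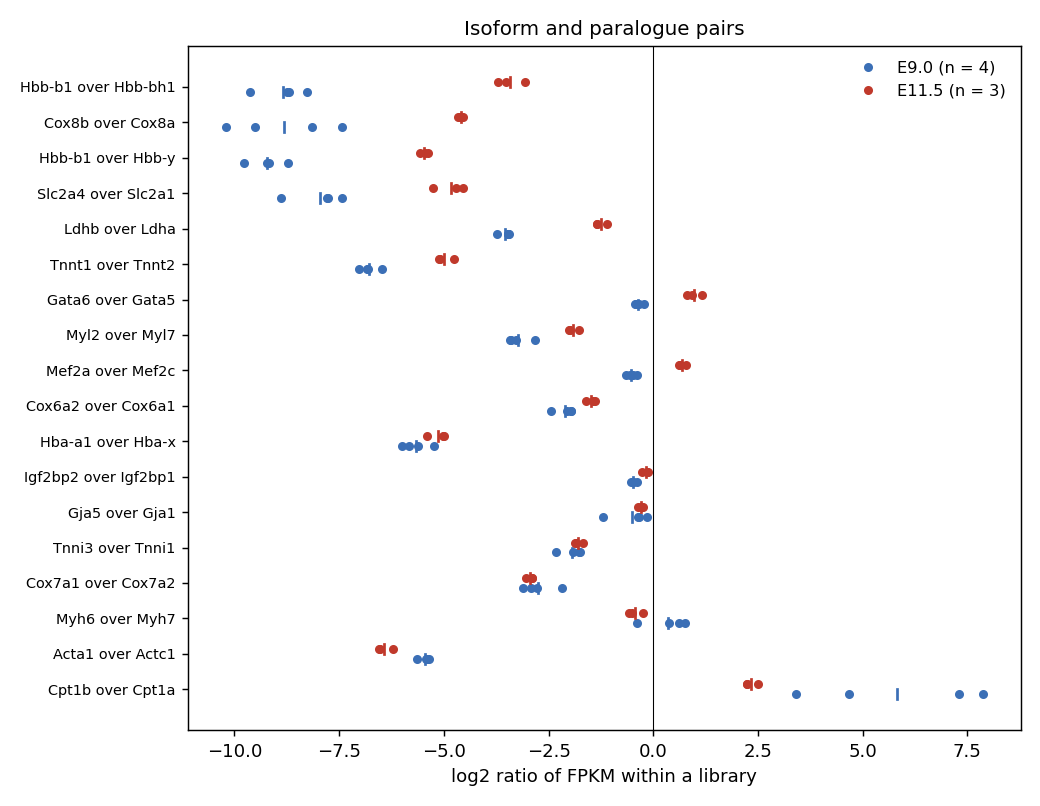
Log2 ratio of FPKM within each library (x axis) for 18 of the 19 gene pairs (rows, ordered by the difference between stages), E9.0 in blue (n = 4) and E11.5 in red (n = 3), with group means as bars. The groups do not overlap in 13 of these, and the ratio of Hbb-b1 to Hbb-bh1 shifts the most (5.41).

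The series holds 6 further E11.5 libraries, of right ventricle and outflow tract from the Mef2cAHF::Cre cross. Their genotype labels and column names disagree, so mutants and controls are shown together, by range and with no test. They differ in tissue, Cre line, genotype and sequencing group, so they are set beside the whole hearts without comparison. Lin28a was at 11.3 to 16.3 FPKM at E9.0, 0.185 to 0.282 in the E11.5 whole hearts and 0.115 to 0.511 (median 0.364) in the right ventricle and outflow tract. Trim71 was at 9.07 to 12.3 FPKM at E9.0, 1.04 to 1.46 in the E11.5 whole hearts and 1.06 to 2.16 (median 1.54) in the right ventricle and outflow tract, and Hmga2 at 152 to 163 FPKM at E9.0, 38.1 to 41.7 in the E11.5 whole hearts and 65.7 to 155 (median 97.1) in the right ventricle and outflow tract. Hbb-y was at 2565 to 7268 FPKM at E9.0, 64964 to 107346 in the E11.5 whole hearts and 3785 to 24449.8 (median 12982) in the right ventricle and outflow tract. Postn was at 0.727 to 1.8 FPKM at E9.0, 20.2 to 24.0 in the E11.5 whole hearts and 44.2 to 56.2 (median 47.5) in the right ventricle and outflow tract, and Col1a1 at 1.302 to 4.18 FPKM at E9.0, 20.03 to 36.9 in the E11.5 whole hearts and 20.2 to 38.7 (median 29.9) in the right ventricle and outflow tract. Casq2 was at 0.870 to 1.74 FPKM at E9.0, 15.7 to 20.5 in the E11.5 whole hearts and 4.63 to 10.9 (median 9.43) in the right ventricle and outflow tract, and Pln at 34.7 to 41.1 FPKM at E9.0, 118 to 149 in the E11.5 whole hearts and 116 to 177 (median 163) in the right ventricle and outflow tract. Myocd was at 56.0 to 64.3 FPKM at E9.0, 19.2 to 19.5 in the E11.5 whole hearts and 21.6 to 29.6 (median 28.0) in the right ventricle and outflow tract. Nppa was at 439 to 724 FPKM at E9.0, 971 to 1461 in the E11.5 whole hearts and 179 to 405 (median 236) in the right ventricle and outflow tract.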

How the data were processed

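Whole-heart RNA of 7 control embryos was measured by RNA-seq, 4 at E9.0 and 3 at E11.5, grouped by sample titles. The authors aligned reads to mm9 (the submitters' processing notes name TopHat2 2.0.8b), used featureCounts to assign them to genes, and gave counts that are not normalized. The deposited FPKM were computed by the authors with USeq as the count per kb of feature length and per library total. The 20 columns of variance-corrected values were not used. Whether counting used strand is not given in the sources used here. The labels name an amplifying library kit and the study's methods another. Where a group had 0 counts, bounds were set against a floor of 3 counts, which covers counting error only.

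edgeR 4.0.16 (R 4.3.3) was run on the counts of the 7 libraries (filterByExpr, TMM, glmQLFit and glmQLFTest, no covariate), with Benjamini-Hochberg adjustment (FDR) over all genes tested and a threshold of 0.05. A second rule added a 2-fold change and no overlap of CPM. Each SE was obtained from the fold change (log2) and the F statistic, as |change|/√F. The script of the fit was tested on simulated data. Ratios of FPKM were compared by an exact permutation test in SciPy 1.17.1. Sequences came from RefSeq and from the mm9 genome with its Ensembl annotation. Alternatives were DESeq2 1.42.0 and its size factors, 2 filters on low counts, all 20 libraries in 1 fit, the replicate block, limma-trend (limma 3.58.1) on log2 FPKM with pseudocounts of 0.1 and 1, thinning to the smallest total, globin, mitochondrial and Y genes left out, sex as a covariate, and leaving out each library in turn.

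The genes named are core members of each list, up to 3 further members per list and direction with the largest changes past the second rule, the 10 largest rises and falls among genes averaging 3 or more in log2 CPM, both genes of each pair, and Kmt2d. A few genes under this rule are not reported here, and Vsnl1, Nr2f2 and Shox2 were added after their values were seen. Members, lists, pairs and tests were chosen with earlier results of these data known.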

Additional observations from a re-analysis of the deposited data

Results flagged for a closer look

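For groups of 4 libraries, an E9.0 heart was marked where its gap to the nearest other heart took up more of the group's whole range than Dixon's 95% critical value. Chance alone marks some groups in this way, about 5% of those looked at. The share marked is not given here, so the marks below are not shown to exceed it. The E11.5 group of 3 was too small for this rule.

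Nkx2-5 stood at 73.3 CPM in E9.0 replicate 2, against 14.1 to 21.3 CPM in the other 3 hearts. The inflow gene Nr2f2 was at 5.31 CPM in replicate 4, against 30.0 to 33.8 CPM in the others, and Bmp2 was at 27.6 CPM there, against 46.1 to 46.9 CPM. In the same heart Nppa was high at 239 CPM (146 to 158 CPM in the others), as were Tagln at 221 CPM (118 to 129.98 CPM), Fgf10 at 16.6 CPM (9.31 to 9.98 CPM), Lyz2 at 13.6 CPM (4.74 to 6.08 CPM), E2f2 at 12.4 CPM (5.61 to 6.28 CPM) and Ccnd3 at 116 CPM (94.2 to 96.8 CPM). The mitochondrial gene mt-Nd2 was at 774 CPM there, against 245 to 256 CPM, and the gene model AL732526.3 at 184 CPM, against 0.234 to 0.412 CPM. The summed CPM of the Notch, BMP and TGF-beta list was 1400.4 in replicate 4 and 1531 to 1549 in the others.

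In replicate 3 Nkx2-6 was at 2.92 CPM, against 0.581 to 0.662 CPM in the other E9.0 hearts. Myl3 was low there at 534 CPM (675 to 697 CPM), as was Ldha at 1209 CPM (1392 to 1424 CPM), while mt-Nd1 was slightly high at 2958 CPM (2843 to 2862 CPM). Trf was at 2.92 CPM in replicate 2, against 0.662 to 0.891 CPM. Hsd3b6 was at 9.93 CPM in replicate 1, against 4.92 to 5.70 CPM.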

How the results depend on the processing

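Over the alternatives that keep all libraries, 5224 to 7280 genes were called, 2830 to 3995 higher and 2394 to 3405 lower, and leaving out 1 library gave 4758 to 6156, 2527 to 3211 higher and 2183 to 2947 lower. Between 73.2% and 99.8% of the 6401 calls were kept, and 0 called genes changed direction under any alternative. Past the second rule the counts were 1328 to 1681 higher and 523 to 744 lower with 1 library left out. On log2(FPKM + 1) they fell to 686 higher and 383 lower, since the pseudocount shrinks the fold of low genes. With all genes of at least 1 count the median of all genes moved to 0.08 and 56.8% of calls were higher, against 51.1% in the fit reported. The 14 pairs without overlap became 14 to 16 when 1 library was left out, and stayed 14 with CPM. Over the named genes and alternatives, 3975 values kept direction and side of the threshold, 77 lost a call, 27 gained one and 37 changed sign. Without E9.0 replicate 1, 3 or 4 the model AL732526.3 did not pass the filter.

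Replicate numbers are shared by the groups, but these are different embryos: deviations from the group means correlated at -0.108, -0.0611 and -0.0746 for replicates 1, 2 and 3, none of which is above 0.1. No E9.0 library correlated best with its own number. The fit with a replicate block called 2830 genes higher and 2394 lower (5224 in all) and kept 78.3% of the calls. Among named genes it ended the calls of Mrc1, Kcnj3, Npr3, Cox6a1, Ccnb1, AL732526.3 and Hoxd3 and added those of Nppb, Cdkn1a and Vsnl1.

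Of the 198 named genes called, 19 lost their call under at least 1 alternative and 16 of these with 1 library left out. Without E11.5 replicate 3 this held for Cd36 (FDR 0.0839), Sdha (0.0661), Pecam1 (0.0836), Tcap (0.147) and Cox6a1 (0.0701), without replicate 2 for Cacna1c (0.0509), without replicates 2 or 3 for Cfc1 (0.0556 and 0.0548) and Hoxd3 (0.108 and 0.107), and without replicate 1 or 3 for Ttr (0.0813 and 0.076). Tcap was also lost without E9.0 replicates 2 or 3 (0.0684 and 0.0567), and Cox6a1 (0.0503) and Hoxd3 (0.0545) without E9.0 replicate 4. Kcnj2, Kcnj3, Mrc1, Myh11, Npr3 and Ccnb1 were lost without any of several libraries, with an FDR of 0.0529 to 0.208. Nkx2-5 passed without E9.0 replicate 3 (FDR 0.0304) or 4 (0.0293). Without E9.0 replicate 4, Nppb was higher (log2 fold change 0.63, FDR 0.00575), Cdkn1c was higher (0.39, FDR 0.0320) and Vsnl1 was lower (-1.47, FDR 0.000234). The cause was not tested. With at least 10 counts in every library, 9 epicardial, 4 macrophage and 7 megakaryocyte and platelet genes were higher, since that filter drops genes absent from a library.

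Genes near a fold change of 0 changed sign, all of them uncalled. Myh7 went to 0.000398 with all 20 libraries, 0.000527 with all genes of at least 1 count, 0.00624 with at least 10 counts in every library and 0.17 with the block, and to between -0.19 and 0.13 with 1 library left out. Bmp10 went to 0.0235, 0.0211 and 0.0283 in the first 3 of these, to 0.00929 with globin, mitochondrial and Y genes left out, 0.0397 after thinning, and 0.0123 to 0.0559 with 1 library left out. Igf2 went to -0.0305 on log2(FPKM + 0.1) and on log2(FPKM + 1), -0.0803 with the block, -0.0146 with sex, and -0.10 to -0.00121 with 1 library left out. Dlk1 went to 0.0279 with all 20 libraries, 0.0230 and 0.0307 under the 2 filters, 0.0126 without globin, mitochondrial and Y genes, 0.0417 and 0.0256 on the 2 log2 FPKM scales, 0.0403 with the block, and -0.22 to 0.30 with 1 library left out. With 1 library left out Tnnt2 ran from -0.23 to 0.0524, Mcm2 from -0.0128 to 0.16 and Kmt2d from -0.15 to 0.0269, the positive values of Tnnt2 and Kmt2d coming without E11.5 replicates 1 and 3 and the negative value of Mcm2 without E11.5 replicate 1. Depth limits genes under 1 CPM most, since their values rest on few counts.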
